A study of Mus musculus with 18 samples.

Results

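The urothelium-rich spots of the mouse bladder sections comprised 969 of the 4415 spots that held at least 500 UMIs (unique molecular identifiers, 1 per captured RNA molecule) on 4 Visium sections. Visium is a spatial assay in which a frozen tissue section lies on a grid of barcoded spots, and each spot collects RNA from the small region of tissue above it, which can hold several cells of different types. The members were chosen by measured values of 15 genes. In each section, a spot was a member when its share of UMIs from 6 urothelial genes (Krt5, Krt15, Upk1a, Upk1b, Upk2 and Upk3a) lay in the top 25% and ranked better than its shares of 4 smooth muscle genes (Myh11, Actg2, Des and Cnn1) and of 5 collagen-region genes (Col1a1, Col1a2, Col3a1, Dcn and Lum). The sections were of whole bladder from C57BL/6 males. The first and second 22-month sections gave 269 and 249 members, and the first and second 14-month sections gave 210 and 241. Each section sample is labelled as a group of 4 males, and the labels do not say which animal a section came from. With section as a block, p-values for classes of spots measure how far the class difference varied from section to section. Those between ages measure the spread between sections. Either spread may be technical. The remaining 3446 spots served as the comparison, together with 964 collagen-rich and 1021 muscle-rich spots chosen by the same rule from the other shares, and epithelial cells from 5 libraries of dissociated whole C57BL/6 bladder, which pooled 3 males at 22 months, 3 males at 3 months, and 2 females with 2 males at 12 months (2 libraries) and at 24 months. No treatment or engineered allele is named for any of these groups.

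The urothelium is the stratified epithelium that lines the bladder and keeps urine from the tissue beneath it. It is built from keratin-rich basal cells on a basement membrane, intermediate cells, and large superficial umbrella cells whose apical membrane is covered by plaques of uroplakins. Tight junctions between umbrella cells seal the barrier, and basal cells signal to the fibroblasts below through Sonic hedgehog. In a spot that spans the epithelium these layers are captured together, so the values below describe mixtures, and fewer cells of a type and less RNA per cell cannot be told apart in them.

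All values by section are given in the order first 22-month, second 22-month, first 14-month and second 14-month section. The 6 urothelial genes of the rule took a median of 1.12, 1.27, 1.07 and 1.09% of the UMIs of the members, against 0.418, 0.471, 0.327 and 0.278% in the other spots. The last spot inside the rule held 0.838, 1.05, 0.826 and 0.822% and the first below the top 25% held 0.837, 1.05, 0.826 and 0.819%, so the members end within a continuous range and not at a gap. A further 60, 10, 24 and 39 spots of the top 25% were left out because their collagen-region share ranked better. The members were RNA-rich: their median depth was 50153, 32416, 42162 and 44132 UMIs, which is 3.65, 2.07, 2.87 and 3.49 times that of the other spots, and they held 42.1, 40.8, 46.8 and 47.6% of the UMIs of their sections. This difference in depth moves with every comparison against other spots. Its part in the results was examined only with members and other spots of 10000 to 30000 UMIs. That restriction did not match depth: the medians there were 19927, 19040, 21758.5 and 18420 UMIs in members against 14262, 17053, 15682 and 14049 UMIs in other spots. Pairs of sections shared 247 to 533 spot barcodes, of which 0 to 22 were members in both; spot barcodes mark grid positions and recur between slides.

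The label was checked with genes that a choice of spots did not use, because the rule's own genes are high by construction. Each such choice still required the urothelial share to rank better than the muscle and collagen-region shares. That alone moves muscle-rich and collagen-rich spots to the other side, and its part in the differences of this check was not tested. When spots were chosen by the 4 uroplakins alone, Krt15, a keratin of stratified epithelia, was measured at 1094, 1019.5, 1966 and 2411 CPM (UMI counts scaled to library size, not by gene length) against 876, 806, 1066 and 1168 CPM elsewhere, which is 0.64 ± 0.11 (SE) higher on the log2 scale (adjusted p = 0.00086, edgeR quasi-likelihood test with Benjamini-Hochberg adjustment over all genes). Krt5, the classical basal keratin, was 0.51 ± 0.10 higher on the log2 scale (adjusted p = 0.0015). Outside this check of the label, CPM of single genes use library sizes with TMM factors, which are estimated in each fit, so a gene's CPM differ slightly between comparisons. The CPM of this check and sums over lists use the plain totals. Both keratins were above the level of the other spots in each of the 4 sections. Collagen-rich spots came closer to the members, which is given as a description. Krt15 was at 1115, 1056, 2168 and 2562 CPM in the members and 1138, 1032, 1315 and 1601.5 CPM in the collagen-rich spots. Krt5 was at 495, 661, 850 and 1026 CPM in the members and 506, 656, 571 and 687 CPM in the collagen-rich spots. For both keratins these classes were nearly level in the older sections, and the members were higher in the younger sections. When spots were chosen by Krt5 and Krt15 alone, Upk1a stood at 2887, 3389, 2953 and 2113 CPM against 2450.5, 2660.2, 1381 and 1199 CPM (log2 fold change 0.56 ± 0.15, adjusted p = 0.02) and Upk1b was higher as well (adjusted p = 0.035), whereas Upk2 and Upk3a did not pass the test (adjusted p = 0.064 and 0.054). The uroplakin-only choice gave 985 spots, 905 of them shared with the members (93.4% of the members and 91.9% of that choice), and the keratin-only choice gave 916 spots, 610 of them shared. Epithelial markers outside the rule (Krt7, Krt8, Krt18, Krt19, Cdh1, Epcam, Cldn4, Psca, Gata3, Foxa1 and Grhl3) summed to 11700, 11910, 12990 and 12370 CPM in the members and to 5725, 5572, 4587 and 3843 CPM in the other spots, with no overlap. Smooth muscle markers outside the rule summed to 1570 to 3795 CPM in the members against 23320 to 29670 CPM elsewhere, fibroblast markers to 529 to 699 against 1498 to 3042 CPM, macrophage markers to 234 to 287 against 929.6 to 1881 CPM and lymphatic endothelial markers to 8.30 to 18.6 against 156 to 299 CPM. These lower levels are given as a description, since the rule ranked muscle and collagen genes. No marker of these 4 lists was at 0 in the members, and how much of this RNA came from neighbouring spots was not measured.

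**Figure D1:**
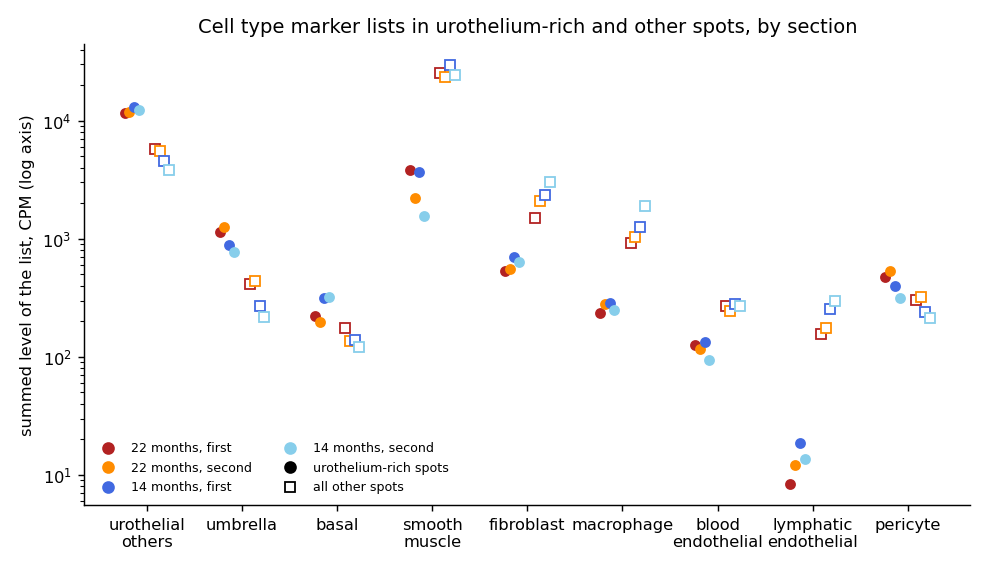
Summed level in CPM (log axis) of 9 fixed marker lists, for the urothelium-rich spots (filled circles) and all other spots (open squares) of each section. The epithelial list lies at 11700 to 12990 CPM in the urothelium-rich spots and at 3843 to 5725 CPM elsewhere, and the smooth muscle list shows the opposite order.

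Against all other spots, the urothelium-rich spots had higher levels of umbrella cell, barrier, transcription factor and sterol synthesis genes. Across 13894 genes outside the rule, 4719 were higher (34%) and 4837 lower (34.8%) at an adjusted p under 0.05 in the edgeR fit with section as a block. At least 2-fold changes numbered 1200 higher (8.64%) and 2564 lower (18.5%). These shares are the background for the list counts against other spots, and each later comparison is given with its own. The median log2 change over all genes was 0.02. Because the genes were counted in the same spots as the rule's genes, dissociated cells are used further below as separate material. With members and other spots restricted to 10000 to 30000 UMIs, an alternative chosen after seeing the data, 4810 of 12711 genes were called, and 8568 of the 8886 called genes that could still be tested kept their sign. With spots chosen by Krt5 and Krt15 alone, 10 of 20 genes singled out in this comparison (18 by rule, with Clu and Meg3 added after their values were seen) were no longer called. Here and below, the largest rises and falls are those among called genes with a mean of at least 20 CPM in the higher class and the same direction in every section, or no overlap between ages.

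Of 13 tested umbrella layer genes, 13 were higher and 12 of them at least 2-fold, with a median log2 change of 1.51. Krt20, the keratin of umbrella cells, was measured at 203, 228, 154 and 113 CPM against 54.7, 62.6, 31.2 and 18.4 CPM (log2 fold change 2.15 ± 0.13, adjusted p = 8.7e-06). The members lay above the other spots in each section, and the lowest member value exceeded the highest value elsewhere. Psca, a surface protein of superficial urothelium, stood at 3494, 4202, 2615 and 2416 CPM against 1179.8, 1519, 957 and 696 CPM (1.57 ± 0.08, adjusted p = 5.6e-06). Snx31, a sorting nexin that handles uroplakins in the endocytic pathway, was 1.94 ± 0.10 higher, and Rab27b, a GTPase of the fusiform vesicles that carry plaques to the surface, 1.86 ± 0.15 higher. Acer2, an alkaline ceramidase, stood at 776, 829, 656 and 558 CPM against 106 to 227 CPM. Upk3b, a uroplakin outside the rule that mesothelium also expresses, was 1.08 ± 0.08 higher (adjusted p = 1.3e-05), while Upk3bl was at 8.91 against 6.85 CPM and did not pass (adjusted p = 0.092). The 2 other mesothelial markers were lower in the members: Lrrn4 averaged 0.148 against 3.59 CPM, and Msln was at 1.32 to 2.82 CPM against 26.2 to 60.9 CPM. All 6 tested small proline-rich proteins, cornified envelope precursors, were at least 2-fold higher. Sprr1a reached 5746, 6032, 4304 and 4886 CPM against 2119, 2282, 1496 and 1316 CPM (1.56 ± 0.10). The Sprr2a copies are nearly identical, so the split of reads among them is uncertain.

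Of 17 tested tight junction genes, 15 were higher and none lower. Cldn8, a barrier-forming claudin, was among the largest rises of all genes, at 175, 192, 89.7 and 74.0 CPM against 40.8, 49.6, 18.6 and 9.72 CPM (log2 fold change 2.27 ± 0.15, adjusted p = 9.7e-06). Cldn4 was at 424 to 848 CPM against 189 to 302 CPM (1.24 ± 0.15). Cldn1 (adjusted p = 0.32) and Cldn12 (adjusted p = 0.71) did not pass the test, with means of 7.99 against 9.01 CPM and 11.9 against 12.3 CPM. Of 15 tested desmosome and adherens junction genes, 13 were higher, led by the epithelial cadherin Cdh1 (1.83 ± 0.20) and the desmoplakin gene Dsp (1.58 ± 0.19). The 2 that were lower were Cdh3, P-cadherin, at 4.88 against 8.65 CPM, and Pkp2, a plakophilin, at 12.1 against 25.6 CPM. The largest rises outside the lists were Adtrp (2.32 ± 0.18), Slc9a2, a sodium-proton exchanger (2.30 ± 0.16), Slc16a12, a creatine transporter (2.28 ± 0.12), Cyp3a57, a cytochrome P450 (2.26 ± 0.15), Ttr, the transthyretin gene (2.25 ± 0.15), and Tspan6, a tetraspanin (2.18 ± 0.12). Tspan6 was at 322, 329.9, 234 and 198 CPM against 78.3, 87.2, 51.0 and 32.8 CPM. Fut9, Gldc and Sptlc3 followed, with log2 changes of 2.13, 2.11 and 2.11. The largest falls were in Ccl21a, a lymphatic endothelial chemokine (-4.36), Msln (-4.22), Mmrn1, another lymphatic gene (-3.90), Kcng1 (-3.68), Rbfox3 (-3.61) and Acta1, skeletal muscle actin (-3.61).

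All 20 listed urothelial transcription factors were tested and all 20 were higher, 16 of them at least 2-fold, with a median log2 change of 1.31. Grhl3, a Grainyhead-like factor of terminal urothelial differentiation, stood at 204, 138, 187 and 133 CPM against 58.9, 40.1, 36.4 and 24.2 CPM (log2 fold change 2.09 ± 0.13, adjusted p = 9.4e-06). The 4 member values did not overlap those of the other spots. Pparg, a nuclear receptor that drives urothelial differentiation, was measured at 174, 103, 125 and 134 CPM against 68.9, 47.5, 34.9 and 30.3 CPM (1.60 ± 0.16, adjusted p = 7e-05). Foxa1 (1.64 ± 0.17) and Gata3 (1.30 ± 0.16), factors of luminal identity, and Trp63, the p63 gene of basal cells (1.19 ± 0.21), were all higher. Foxq1, a forkhead factor, was at 645, 498, 889 and 739.5 CPM against 288, 226, 259 and 162 CPM. The smallest rises were in the retinoid receptors Rarg (0.29 ± 0.11, adjusted p = 0.042) and Rxra (0.59 ± 0.10). Ovol1 was highest in the first 14-month section, at 22.7, 14.9, 80.8 and 30.1 CPM in the members and 8.40, 7.41, 23.7 and 5.85 CPM in the other spots, so both classes of that section were high. Krt23, a keratin, had its highest level there too, at 7.02, 9.33, 95.1 and 18.9 CPM and 4.20, 4.40, 26.9 and 4.53 CPM. Elf3 was at 146, 154, 356 and 257 CPM in the members, above both 22-month sections in both 14-month sections.

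**Figure D2:**
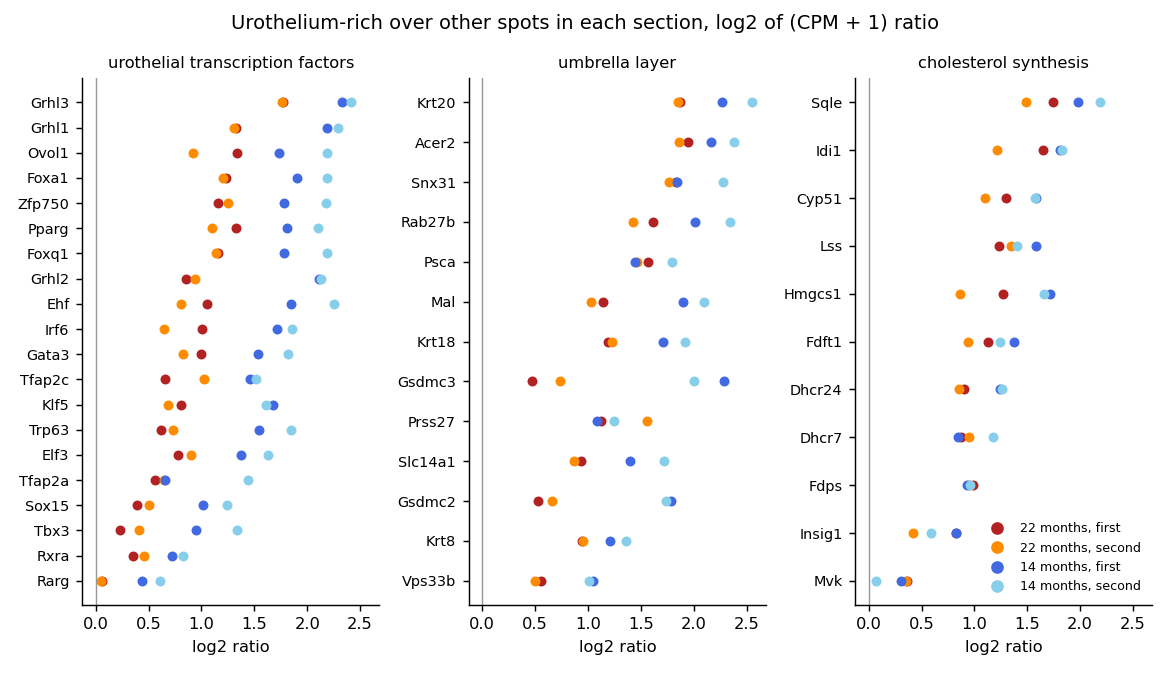
Log2 of the ratio of CPM + 1 between urothelium-rich and other spots in each section, for transcription factors, umbrella layer and cholesterol synthesis genes of the lists; each point is 1 section. In all 3 panels every point drawn lies to the right of 0, and for most transcription factors the 22-month sections (red and orange) lie left of the 14-month sections (blue).

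All 13 genes of the cholesterol list moved together: 13 were higher in the members, 9 at least 2-fold, with a median log2 change of 1.31. Sqle, squalene epoxidase, was measured at 81.8, 66.0, 75.5 and 52.8 CPM against 23.8, 22.9, 18.4 and 10.8 CPM (log2 fold change 1.89 ± 0.12, adjusted p = 9.6e-06), with no overlap. Hmgcs1, which makes the precursor of the mevalonate pathway, was at 137, 86.1, 135 and 118 CPM against 56.5, 46.9, 40.5 and 36.7 CPM (1.39 ± 0.14, adjusted p = 7.2e-05). Idi1, an isomerase of the pathway, rose by 1.70 ± 0.12, and Insig1, a feedback regulator, by 0.69 ± 0.10. Mvk had the smallest change (0.29 ± 0.08, adjusted p = 0.013). Sterol genes are classically controlled through sterol regulatory elements that work beside CCAAT boxes, so the 250 bases before their starts were read from RefSeq promoter windows (GRCm38.p6), which matched 7 of the 13 genes. CCAAT, searched on both strands, was found before 7 of the 7 matched genes, against 37.5% of all 27025 genes with a window. TCACNCCAC, a form of the sterol element, was found only before Hmgcs1 among the 7 (1.23% of all genes), and CACGTG, the E-box, before Dhcr7 and Insig1 (6.86%). The stretches before Hmgcs1 (chr13:119690161-119690280, plus strand, 190 to 71 bases before the start) and Insig1 (chr5:28071182-28071321, plus strand, 230 to 91 bases before the start) are shown because they hold these motifs; capitals mark matches to the 3 motifs on either strand, which do not overlap there, and a match is not a bound site.
Hmgcs1: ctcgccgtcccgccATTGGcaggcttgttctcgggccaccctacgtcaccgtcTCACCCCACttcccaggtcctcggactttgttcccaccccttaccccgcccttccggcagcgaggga
Insig1: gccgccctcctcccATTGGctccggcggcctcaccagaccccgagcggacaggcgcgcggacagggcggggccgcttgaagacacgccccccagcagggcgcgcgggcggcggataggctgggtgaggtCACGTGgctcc

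Of 21 fatty acid handling genes, 16 were higher and 5 lower. Fabp4, a fatty acid binding protein best known from adipocytes and capillaries, had the largest rise of the list, at 2683, 4006, 1628 and 1049 CPM against 618, 978, 365 and 218 CPM (log2 fold change 2.14 ± 0.08, adjusted p = 5e-06). It was higher in each section, and in both classes of spots the 22-month sections held more of it than the 14-month sections. The adipocyte markers Adipoq, Plin1, Cidec and Lep summed to at most 0.223 CPM in the members and to at most 0.249 CPM in the other spots, and 1 of the 4 genes was at 0 in the members. The blood endothelial markers summed to 94.2 to 133 CPM in the members, below the 244 to 279 CPM of the other spots. Fabp5, its epidermal relative, was 1.49 ± 0.13 higher, Elovl6, a fatty acid elongase, 1.79 ± 0.10 higher, and Dgat2, which makes triglycerides, 1.13 ± 0.12 higher. The lower genes included the fatty acid transporter Cd36 (-2.46), the lipase Lpl (-2.16), Scd1 (-1.11) and Dgat1 (-0.25).

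Of 27 tested glutathione and detoxification genes, 17 were higher and 7 lower. Gstm1, a glutathione S-transferase, was at 19819, 19139, 16030 and 14945 CPM against 10731, 10570, 6499 and 4948 CPM (log2 fold change 1.16 ± 0.13, adjusted p = 0.00011). The members lay above the other spots of every section. Gsta4 followed at 4854, 4425, 4761 and 4874 CPM (1.19 ± 0.15), and Adh7, which oxidises retinol and ethanol, had the largest rise of the list (1.53 ± 0.11). Cyp1a1, an enzyme induced by aryl hydrocarbon ligands, varied widely among sections, at 92.5, 14.3, 79.9 and 23.6 CPM in the members against 52.4, 8.65, 23.0 and 11.8 CPM elsewhere. The lower genes included Gpx3, secreted glutathione peroxidase (-2.24), Cyp4b1 (-2.45) and Gstm5 (-2.14); glutathione transferases are close paralogs, so reads may be split among them. Of 18 tested transport and sensing genes, 10 were higher and 5 lower. The sodium channel subunits Scnn1g (1.77 ± 0.22) and Scnn1b (1.24 ± 0.18) were higher, while Scnn1a was at 3.65 against 4.40 CPM and did not pass (adjusted p = 0.26). Kcnk1, a potassium channel, was 1.92 ± 0.16 higher, and the water channel Aqp3 stood at 655, 613, 1142 and 862 CPM against 382, 331, 326 and 231 CPM. The stretch channel Piezo1 was lower (-0.87 ± 0.07), at 46.1, 46.6, 53.2 and 47.5 CPM against 81.2, 87.8, 89.9 and 94.7 CPM, as were Trpv2 (-3.03) and P2rx7 (-1.57), whereas Trpv4 was higher (0.66 ± 0.12). Among 12 tested mucin and defence genes, 5 were higher and 6 lower. Ly6d, at 3091, 3236, 4148 and 4581 CPM against 1836, 1927, 1656 and 1624 CPM, and Wfdc2, at 1950.4 to 2739 against 1053 to 1534 CPM, were higher, and the antiprotease Slpi was lower (-3.54).

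Basal layer genes were mixed. Of 16 tested outside the rule, 12 were higher, 7 of them at least 2-fold, and 2 were lower (median 0.92). Sfn, the stratifin gene, stood at 599, 691, 1049.5 and 793 CPM against 245, 266, 353 and 233 CPM (1.50 ± 0.10), and the laminin chain genes Lama3 and Lamb3 were 1.08 and 0.98 higher on the log2 scale. Krt14, a keratin of basal progenitors, was near the limit of counting, at 0.747 to 2.27 CPM in the members, and did not pass (adjusted p = 0.82). Cdh3 and Bcam, a laminin receptor also found on vessels (-0.48), were the lower ones. Of 16 tested basement membrane genes, 6 were higher and 9 lower. Lama3, Lamb3, Col17a1, Col7a1 and Agrn were among the higher genes, and collagen IV (Col4a1 -2.08, Col4a2 -2.34), perlecan (Hspg2 -2.28) and the nidogens (Nid1 -2.05, Nid2 -2.66) were lower.

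Of 23 tested hedgehog, Wnt, Bmp and growth factor genes, which carry signals between epithelium and the tissue beneath it, 10 were higher and 9 lower, near the shares over all genes given above. Among ligands, Shh stood at 181, 159, 195 and 219.8 CPM against 106, 81.0, 47.9 and 48.6 CPM (log2 fold change 1.47 ± 0.24, adjusted p = 0.00084), without overlap. Wnt5a (1.29 ± 0.14), Wnt7b (0.89 ± 0.10), Bmp2 (1.31 ± 0.14), Bmp7 (1.39 ± 0.11) and the epidermal growth factor family ligands Tgfa (2.01 ± 0.13) and Areg (1.86 ± 0.15) were higher. The ligands Wnt2 (-0.73), Bmp4 (-1.23) and Fgf7 (-1.97), textbook products of mesenchyme, were lower. Of the hedgehog response genes, Smo, the signal transducer, and Gli1, a target and effector, were lower (-1.01 and -0.97), and Ptch1, the receptor and target, was at 74.0, 66.2, 53.1 and 58.6 CPM against 92.8, 105, 52.5 and 57.4 CPM and did not pass (adjusted p = 0.11). Fgfr2 was slightly lower (-0.25 ± 0.09, adjusted p = 0.034) and Egfr was at 22.7 against 22.9 CPM (adjusted p = 0.97). Areg and Hbegf were high in 1 section: in the members of the first 14-month section they reached 56.5 and 66.4 CPM, while the other 3 sections lay at or below 7.92 and 6.25 CPM. The other spots of that section were the highest of the 4 as well, at 16.0 and 24.5 CPM.

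Of 21 tested immediate-early genes, 4 were higher than in other spots and 8 lower, where 34% of all genes were higher and 34.8% lower. The first 14-month section was high for them in every class of spots: the list summed to 1056, 686, 4105 and 2325 CPM in the members, 1237, 769.9, 5232 and 1378 CPM in the other spots, 1367, 809.6, 5814 and 1749 CPM in the collagen-rich and 1022, 758, 5112 and 1152 CPM in the muscle-rich spots. In the members, Atf3 was at 1.87, 0.796, 287 and 4.71 CPM and Nr4a1 at 8.96, 6.37, 452 and 19.6 CPM. The 12 proliferation genes summed to 253, 273, 321 and 339.5 CPM in the members against 166, 227, 146 and 188 CPM elsewhere. Stmn1, a tubulin-binding protein, made up most of this sum, at 182, 203, 228 and 232 CPM in the members, and was 1.12 ± 0.14 higher, while the median log2 change of the list was -0.92. Tyms was 0.74 ± 0.11 and Pcna 0.24 ± 0.08 higher, whereas Mki67 was lower, at 0.149, 1.36, 0.473 and 0.856 CPM in the members against 0.638, 8.88, 1.59 and 6.67 CPM elsewhere. Of 10 tested genes 3 were higher and 4 lower. Ribosomal protein genes were mostly a little higher (53 of 88 higher, 7 lower, median 0.28), and 9 of the 13 mitochondrially encoded genes were lower and none higher (median -0.59). Rgs5, listed as a pericyte marker, was an exception in its list: it stood at 391, 475, 284 and 209 CPM against 154, 186, 99.5 and 70.3 CPM (1.44 ± 0.08, adjusted p = 5.6e-06), while Pdgfrb (-1.10), Kcnj8 (-2.38) and Higd1b (-0.89) were lower and Notch3 did not pass (adjusted p = 0.074). Plasma cell genes were uneven between sections, at 259.9, 468, 3.21 and 14.6 CPM in the members and 274, 2253, 13.1 and 118 CPM in the other spots. Erythroid genes stood at 223, 876, 351 and 141 CPM in the members and 909.8, 1318, 1966 and 1027 CPM in the other spots, lower in the members of every section.

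Set against the 964 collagen-rich spots, chosen in the same way by their collagen-region share, the members had 3946 of 12906 genes higher (30.6%) and 3946 lower (30.6%). Among changes of at least 2-fold the split was uneven, with 575 higher and 2227 lower. Umbrella layer genes were higher in 13 of 13 (median 1.24), transcription factors in 19 of 20 (median 1.01), cholesterol genes in 13 of 13 (median 1.03) and basal layer genes in 10 of 15, with 2 lower. The largest rises were in Cyp3a57 (2.07 ± 0.17), Ttr (1.99 ± 0.15), Slc9a2 (1.94 ± 0.18), Fabp4 (1.90 ± 0.20) and Fam78b (1.88 ± 0.11). The largest falls were in Msln (-4.34), Ccl21a (-3.87), Slpi (-3.79), complement C3 (-3.48), Gpm6a (-3.25) and the lymphatic and macrophage receptor Lyve1 (-3.14). In the collagen-rich spots Krt20 was still measured at 75.3, 70.0, 37.0 and 24.7 CPM, against 20.1, 26.6, 23.4 and 9.27 CPM in the muscle-rich spots and 200.2, 228, 153 and 114 CPM in the members. Against the 1021 muscle-rich spots, 5002 genes were higher (38.8%) and 4606 lower (35.7%), with 2215 higher and 2521 lower by at least 2-fold. The median log2 change was 2.96 for umbrella layer genes, 2.74 for transcription factors and 1.94 for basal layer genes. Fut9, a fucosyltransferase, led the rises (4.59 ± 0.34), followed by Hoxb2 (3.87 ± 0.21), Adtrp (3.86 ± 0.27), Scnn1g (3.80 ± 0.32) and Mal2 (3.66 ± 0.21), and the muscarinic receptor Chrm3 of detrusor muscle was among the falls (-4.78). Among spots of 10000 to 30000 UMIs, 2796 genes were called against collagen-rich and 5750 against muscle-rich spots, where 7892 and 9608 were called at all depths. The comparisons with collagen-rich, muscle-rich and all other spots share the members, so they are not separate evidence for the same genes.

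Dissociated cells gave a measurement of the same genes in other libraries. Epithelial cells were taken as cells with at least 500 UMIs, at least 3 UMIs of the 6 urothelial genes and more of these than of the muscle and collagen genes together. They made up 1170, 1548, 2550, 860 and 2309 cells of the 5 libraries, at medians of 3181 to 17008 UMIs, against 1641 to 6143 UMIs in the other cells. The choice of cells used the same 15 genes as the choice of spots. In the summed counts, 4257 of 12459 genes were higher (34.2%) and 3847 lower (30.9%) in the epithelial cells. Of the 1200 genes at least 2-fold higher in the members, 883 were tested in the cells: 806 of them were higher there (91.3%), 68 were not called and 9 were lower. Of the 2564 genes at least 2-fold lower in the members, 1855 were tested and 1542 were lower in the cells (83.1%). In the opposite direction, 19.8% of the genes higher in epithelial cells and tested in both were at least 2-fold higher in the members. Across 11827 genes, which are not independent replicates, the log2 changes had a Pearson correlation of 0.78.

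By list, umbrella layer genes were higher in 13 of 13 in the cells with a median log2 change of 3.93, transcription factors in 18 of 20 (3.96), cholesterol genes in 12 of 13 (1.99) and basal layer genes in 13 of 15 (3.52). Cldn8 was at 31.0 to 41.1 CPM over the 5 libraries in epithelial cells and at 0.921 to 2.97 CPM in the other cells (log2 fold change 4.99 ± 0.21, adjusted p = 4.7e-06). Shh was at 108 to 159 CPM against 3.12 to 10.7 CPM (4.38 ± 0.26), and Gstm1 at 35662 to 59791 CPM against 3013 to 4458 CPM (3.63 ± 0.17). The largest rises included Sprr2b (5.50 ± 0.29), Krt1 (4.98 ± 0.49), Syt16 (4.69 ± 0.35), Prss8, a membrane protease that activates the sodium channel (4.66 ± 0.27), Fermt1, an integrin activator of epithelia (4.62 ± 0.32), and Padi4 (4.62 ± 0.29), and each of these 6 was also higher in the members (1.77, 1.39, 1.86, 1.07, 1.28 and 0.95).

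A few genes that were high in the members did not follow in the cells. Fabp4, at 2342 ± 1299 CPM in the members (mean ± SD, n = 4), was at 29.0 to 109.8 CPM in epithelial cells and 19.5 to 72.5 CPM in the other cells, and the difference did not pass (log2 0.05 ± 0.28, adjusted p = 0.88). Rgs5 was at 10.1 to 60.7 CPM against 13.1 to 44.6 CPM (adjusted p = 0.79), and Wnt4, 0.55 ± 0.13 higher in the members, at 34.3 to 58.7 against 26.7 to 64.7 CPM (adjusted p = 0.89). Meg3, a long noncoding RNA, went the opposite way: it was 1.55 ± 0.08 higher in the members, at 251, 324, 180.0 and 169 CPM against 81.6, 109.9, 67.7 and 55.3 CPM, and lower in epithelial cells (-5.97 ± 0.58, adjusted p = 0.00021), at 3.91 to 26.5 CPM against 147 to 741 CPM. Clu, clusterin, showed the same reversal (1.04 ± 0.10 in the members and -1.21 ± 0.20 in the cells); Meg3 and Clu were picked from the 9 reversed genes after their values were seen, and the other 7 were Tmem167, Bglap2, Ctns, Hmox1, Tubb2b, Skap1 and Unc13c. For a pair of umbrella cell genes the levels in both materials are given as examples: Psca averaged 3182 CPM in the members and 543 CPM in epithelial cells, and Krt20 174 and 34.8 CPM. The sections and cells were prepared and counted separately, so these levels are set side by side without a test.

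**Figure D3:**
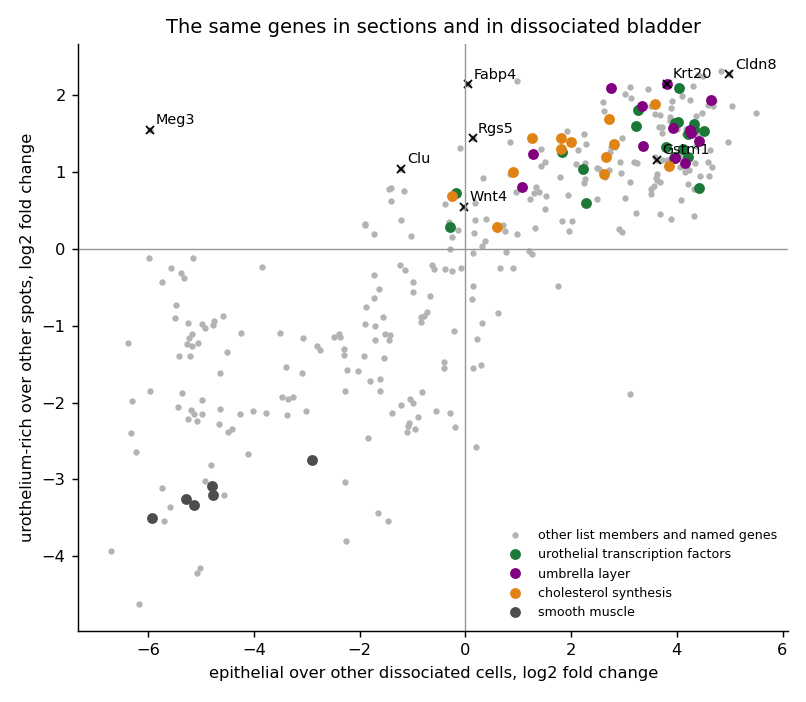
Log2 fold change of list members and named genes between urothelium-rich and other spots (vertical) and between epithelial and other dissociated cells (horizontal); colours mark 4 lists, grey points the other list members and named genes, and crosses the labelled genes. Most transcription factor, umbrella layer and cholesterol genes lie in the upper right, smooth muscle genes lie in the lower left, and Fabp4, Rgs5, Clu and Meg3 lie high with no rise in the cells.

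The members differed among themselves along an axis from keratins to uroplakins. The share of Krt5 and Krt15 among the 6 urothelial genes had a median of 14.8, 13.2, 25.0 and 33.3% and ran from 8.43 to 23.0% (10th to 90th percentile) in the first 22-month section and from 17.4 to 48.5% in the second 14-month section. Within each section, 1 in 3 members with the highest share (89, 83, 70 and 80 spots) were compared with as many with the lowest. The 6 genes that set this share are described only: Krt15 was at 1542, 1460.1, 2787 and 3312 CPM at the keratin end and 883, 881, 1547 and 1725 CPM at the uroplakin end, and Upk1a at 2988, 3883, 2330.3 and 1649.7 and 4845, 5618, 4144 and 3095 CPM, so both kinds of gene were present at both ends. Outside the rule, 1535 of 11770 genes were higher at the keratin end (13%) and 1558 lower (13.2%), and 358 of these 3093 calls were at least 2-fold. Across members, the summed share of the 6 urothelial genes fell as the keratin share rose (Spearman correlation -0.683, -0.671, -0.414 and -0.516). Epithelial markers outside the rule summed to 10120, 10580, 11060 and 10090 CPM at the keratin end and 13190, 13440, 14940 and 14750 CPM at the uroplakin end. So the ends also differed in how much urothelial RNA they held, and its part in the other changes was not tested. Depth moved with this axis as well: the median was 27779, 26638, 43804.5 and 42115 UMIs at the keratin end and 73107, 41806, 44064 and 55703 UMIs at the uroplakin end, so the ends were closest in the first 14-month section. Among members of 10000 to 30000 UMIs no gene passed in edgeR (401 at an unadjusted p under 0.05), and 1697 of the 2205 called genes that could be tested there had the same sign. DESeq2 called 1238 genes and a fit without the section block 1246.

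Umbrella layer genes were lower at the keratin end in 10 of 13 and higher in 2 (median -0.64). Krt20 was at 119, 161, 85.4 and 49.4 CPM against 278, 308, 231 and 187 CPM at the uroplakin end (log2 fold change -1.36 ± 0.16, adjusted p = 0.0034), and Psca at 2232, 3044, 1412 and 1265 CPM against 4631, 5671, 4084 and 3835 CPM (-1.27 ± 0.12). The values of the ends did not overlap for Psca. The 2 that were higher were the gasdermins Gsdmc2 (0.77 ± 0.08) and Gsdmc3 (0.89 ± 0.13), which are close paralogs. Small proline-rich proteins were lower in 5 of 6 and cholesterol genes in 12 of 13 (median -0.56), with Sqle at 48.1, 54.4, 60.9 and 39.9 CPM against 108, 80.4, 99.0 and 69.8 CPM (-0.82 ± 0.09). Among all genes, the largest falls were in Slc16a12 (-1.72 ± 0.18), Cntnap2 (-1.59 ± 0.13), Ttr (-1.53 ± 0.10), Fabp4 (-1.52 ± 0.20), Rsph4a (-1.52 ± 0.19) and Tspan6 (-1.48 ± 0.10), 4 of which were also named for their rise over other spots. Rgs5 fell as well (-0.98 ± 0.08), while the other 4 pericyte markers were higher. Of the transcription factors, 4 were higher (Trp63, Grhl2, Rarg and Sox15) and 5 lower (Grhl1, Grhl3, Foxa1, Pparg and Zfp750). Grhl3 had the largest change, at 117, 102, 150.4 and 96.6 CPM against 268, 171, 234 and 180.0 CPM (-0.87 ± 0.08, adjusted p = 4.5e-06).

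At the keratin end, basal layer genes were higher in 9 of 15 and lower in 1 (Sfn, -0.61). Col17a1, a hemidesmosome collagen, stood at 28.0, 26.8, 29.5 and 39.1 CPM against 16.1, 18.6, 16.0 and 16.2 CPM (0.89 ± 0.13, adjusted p = 0.00012), and Itgb4, its integrin partner, was 0.61 ± 0.09 higher. Basement membrane genes were higher in 7 of 15 and lower in none. The hedgehog genes Shh (0.35 ± 0.06), Ptch1 (0.93 ± 0.13), Gli1 (0.97 ± 0.21), Hhip (1.11 ± 0.13) and Smo (0.86 ± 0.12) were higher together, as were the mesenchymal ligands Wnt2 (1.22 ± 0.11), Bmp4 (0.75 ± 0.13) and Bmp5 (1.05 ± 0.12), while Tgfa (-1.07 ± 0.09), Wnt7b (-0.39 ± 0.08), Bmp2 (-0.30 ± 0.08) and Bmp7 (-0.47 ± 0.07) were lower. Markers of other cell types moved with this axis. All 6 blood endothelial markers were higher, their sum being 172, 158, 169.7 and 149 CPM against 91.4, 82.6, 96.0 and 51.0 CPM, and 3 of 6 fibroblast markers were higher, with sums of 788, 729, 762 and 941 CPM against 314, 432, 555 and 343 CPM. Of 7 macrophage markers, 4 were higher, with sums of 344, 380.5, 277 and 341 CPM against 137, 226, 252 and 153 CPM. The plasma cell markers summed to 479, 663, 3.68 and 11.7 CPM against 39.0, 288.5, 1.11 and 9.09 CPM, higher at the keratin end in every section. The erythroid sum went both ways, at 402, 762, 134 and 141 CPM against 114, 1089, 512 and 110 CPM. Of 5 pericyte markers, 4 were higher (Pdgfrb 0.92 ± 0.14, Kcnj8 0.99 ± 0.22, Higd1b 1.25 ± 0.31 and Notch3 0.40 ± 0.08) and Rgs5 lower, and their sum, most of it Rgs5, was 394, 436, 332 and 251 CPM against 545, 623, 497 and 369.7 CPM. Mitochondrially encoded RNA moved as well: 8 of 12 tested genes were lower at the keratin end and none higher (median -0.50), and the list's sum was 28710, 30180, 27590 and 15880 CPM against 37260, 36570, 34060 and 29710 CPM, lower in every section. The part of these cells and of mitochondrial RNA in the other changes was not tested. The largest rises were in Snai1 (1.38 ± 0.24), Fmo1 (1.35 ± 0.14), Cldn5, the endothelial claudin (1.23 ± 0.15), Wnt2, Ifitm10 (1.22 ± 0.15) and Enpp2, autotaxin (1.22 ± 0.15). Krt4 (0.74 ± 0.07) and Cyp2f2 (0.90 ± 0.09) rose with them, and 10 of 26 detoxification genes were higher and 1 lower. Gstm1 did not pass, at 19276, 19543, 16178 and 13738 CPM against 21008, 19168, 15938 and 16580 CPM (adjusted p = 0.45), nor did Krt7 (-0.03 ± 0.07, adjusted p = 0.8).

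**Figure D4:**
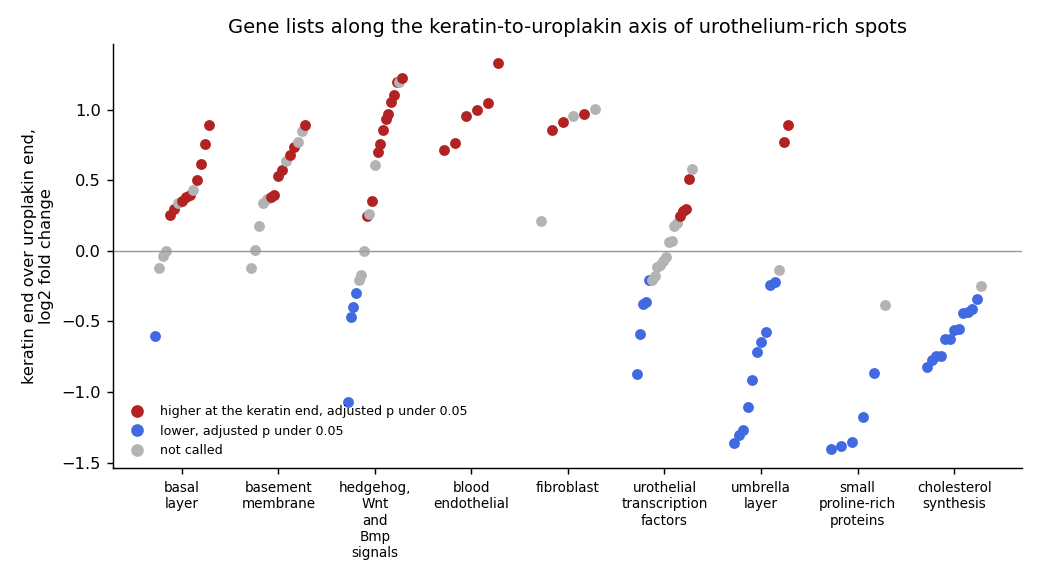
Log2 fold change between the keratin end and the uroplakin end of the urothelium-rich spots for the members of 9 lists, without the genes of the rule; each point is 1 gene, red and blue mark an adjusted p under 0.05. Blood endothelial genes lie above 0, all small proline-rich and cholesterol genes lie below 0, and transcription factors lie on both sides.

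Between ages, the members of the 2 sections at 22 months were compared with those of the 2 at 14 months. Of the genes tested, 84 of 13539 outside the rule were higher at 22 months (0.62%) and 90 lower (0.665%), and 2432 had an unadjusted p under 0.05. With 2 sections an age, this count depended on single sections: it was 19 without the second 22-month section and 83 without the first, and 1 among members of 10000 to 30000 UMIs, where 159 of the 161 called genes that could be tested kept their sign. Other settings raised the count, to 296 in DESeq2 and 936 with no filter on low counts. Age cannot be told apart from anything else that differed between these pairs of sections. Elf5, an epithelial transcription factor, had the largest rise at 22 months, at 22.7, 21.8, 4.77 and 4.38 CPM (log2 fold change 2.28 ± 0.17, adjusted p = 0.0018). Thbs2, a matrix glycoprotein, was at 147, 139, 59.3 and 59.5 CPM (1.27 ± 0.09, adjusted p = 0.0018), and Cldn8 at 174, 194, 90.6 and 75.8 CPM (1.15 ± 0.11, adjusted p = 0.0058). For each of these genes both 22-month sections lay above both 14-month sections, which the rule for singling out genes required. Amn (1.41 ± 0.17), Bhlhe41, a circadian repressor (1.23 ± 0.14), Fndc1 (1.10 ± 0.15), the histamine receptor Hrh3 (1.10 ± 0.14), Smim5 (1.06 ± 0.13), Tbc1d32 (1.04 ± 0.17), Smoc2 (1.04 ± 0.12), Txndc16 (1.03 ± 0.12) and Chst2 (0.95 ± 0.14) were higher as well.

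The largest falls at 22 months included those in Jun, at 40.3, 24.8, 185 and 166 CPM (log2 fold change -2.41 ± 0.25, adjusted p = 0.045), Pdk4, a switch of glucose oxidation (-1.69 ± 0.17), Zfp36, which destabilises messenger RNAs (-1.67 ± 0.20), the alarmin Il33 (-1.63 ± 0.23) and Ier2, at 96.4, 91.5, 287 and 269 CPM (-1.57 ± 0.09, adjusted p = 0.0009). Of 21 tested immediate-early genes, 4 were lower (Jun, Junb, Ier2 and Zfp36) and none higher, and the list's median was -1.30 against 0.00 over all genes. In the other spots the list's sum was also lowest in the 22-month sections, at 1237 and 769.9 CPM. There the second 14-month section lay close to the first 22-month section, at 1378 CPM, and only the first 14-month section was far higher, at 5232 CPM. In the members both 14-month sections stood well above, at 4105 and 2325 CPM against 1056 and 686 CPM. The interaction test described below called 2 of its 23 genes, Atf3 and Nr4a1, both with a lower ratio of members over other spots at 22 months. The same test called 3.97% of all genes with a higher ratio and 5.72% with a lower one, so 2 of 23 is near the share over all genes. Fos was at 40.8, 16.1, 325 and 266 CPM and did not pass (adjusted p = 0.18), and Atf3, Fosb and Nr4a1 were high only in the first 14-month section; Atf3 was at 1.86, 0.805, 289.8 and 4.82 CPM. Basal layer genes were lower in 2 of 15, Trp63 at 135, 128, 176 and 191 CPM (-0.48 ± 0.09, adjusted p = 0.048) and Lamb3 at 70.8, 67.0, 109 and 117 CPM (-0.71 ± 0.09), and none was higher. Krt15, a gene of the rule and therefore a description, was at 1121, 1122, 2128 and 2457 CPM. Of 13 umbrella layer genes 1 passed, Snx31, at 578, 664, 388 and 344 CPM (0.76 ± 0.12, adjusted p = 0.031). Elf3 was lower at 22 months (-1.04 ± 0.15, adjusted p = 0.036). Among lipid genes, Plin2, which coats lipid droplets, was lower, at 134, 147, 345 and 329 CPM (-1.27 ± 0.10), and Elovl6 higher (0.70 ± 0.10). Fabp4 was at 2678, 4048, 1644 and 1074 CPM and did not pass (adjusted p = 0.12), and no gene of the cholesterol list was called. The summed plasma cell level, given above by section, lay higher in both 22-month sections, with none of its 4 genes called, while the blood endothelial list stood at 125, 116, 133 and 94.2 CPM and the fibroblast list at 529, 558, 699 and 630.5 CPM in the members; their part in the age differences was not tested.

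**Figure D5:**
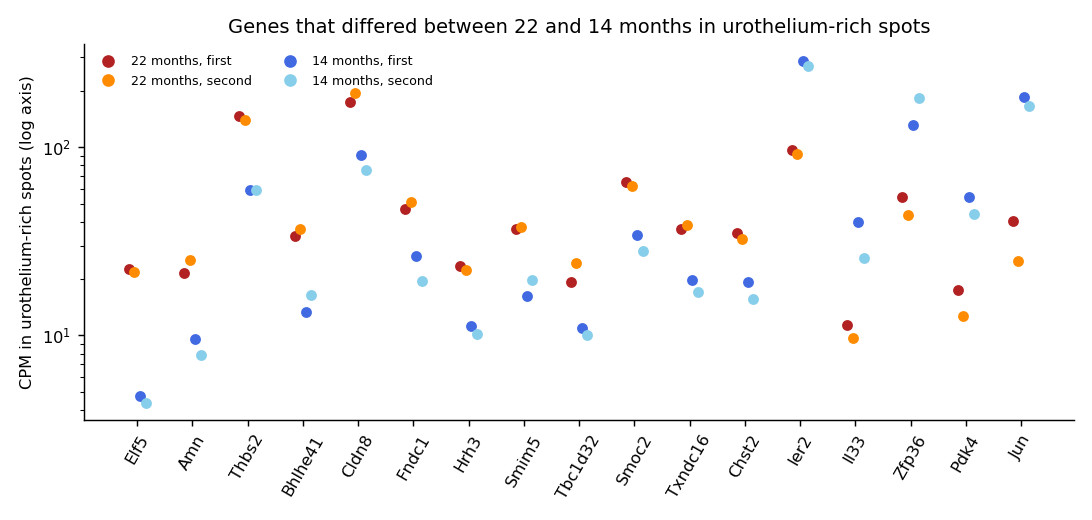
CPM in urothelium-rich spots (log axis) of genes named by rule for their called differences between ages, with 1 point per section. The 22-month sections (red and orange) lie above the 14-month sections (blue) for the 12 genes from Elf5 to Chst2 and below them for the genes from Ier2 to Jun, as the naming rule required.

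The difference between members and other spots itself differed between ages for 1413 of 14575 genes in a test of the interaction: the log2 ratio of members over other spots was higher at 22 months in 579 (3.97%) and lower in 834 (5.72%). The count moved widely with the fit. It was 24 without the section block, 314 in DESeq2, 166 in limma with equal weight for every spot, 157 with spots chosen by the uroplakins alone, 251 with the top 10% of spots, and 80 and 191 without the first and the second 22-month section. It was 2864 with spots chosen by Krt5 and Krt15 alone, 2065 without the first 14-month section, 946 without the second and 2048 with no filter on low counts. The balance of directions turned with the choice of spots: the top 10% of spots gave 185 genes with a higher ratio at 22 months and 66 with a lower one, against 40 and 117 with the uroplakins alone, 1329 and 1535 with Krt5 and Krt15 alone, and 3 and 21 without the section block. No gene passed among spots of 10000 to 30000 UMIs in edgeR, with 470 at an unadjusted p under 0.05, and 1324 of the 1410 called genes tested there kept their sign. Of the 20 urothelial transcription factors, 17 had a lower ratio at 22 months and none a higher one. Grhl2 was at 35.8, 31.1, 37.8 and 45.1 CPM in the members and 19.2, 15.7, 7.92 and 9.44 CPM elsewhere. The members ranged over 31.1 to 45.1 CPM in the 4 sections, and the other spots of both 22-month sections lay above those of both 14-month sections. Epcam showed the same, at 132, 136, 118 and 132 CPM and 62.7, 62.9, 25.2 and 24.6 CPM. The epithelial marker list in the other spots was 5725, 5572, 4587 and 3843 CPM, higher in both 22-month sections, and its part in the interaction was not tested separately. All 13 mitochondrially encoded genes had a higher log2 ratio of members over other spots at 22 months; their summed level was 35230, 34850, 30350 and 24260 CPM in the members and 35610, 34590, 47690 and 38050 CPM elsewhere.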

How the data were processed

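Spatial RNA counts of 4 Visium sections and droplet RNA counts of 5 dissociated whole-bladder libraries were analysed; the other samples of the series were not used here. The deposited tables hold UMI counts per gene and barcode; the submitters' processing notes name bcl2fastq, Cell Ranger and Space Ranger among the tools and mm10 as the build, without versions, and the values were whole numbers as deposited. Section tables list 31053 genes and total 21976101 to 32021223 UMIs, and 73 spots under 500 UMIs were left out. No spot coordinates were used.

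Counts were summed per section (or cell library) and class, filtered with filterByExpr, scaled by TMM and tested with edgeR 4.0.16 (robust quasi-likelihood, R 4.3.3), with section or library as a block except between ages, and Benjamini-Hochberg adjustment over all genes, calling at 0.05. The block follows from the design, as the classes come from the same library. The 15 genes of the rule stayed in the fits. They have no test, except the urothelial genes in the check with spots chosen without them. Mitochondrial genes had no counts in 2 cell tables and were left out of the cell fit. No doublet caller was run on the cells, which were classed by counts of named genes and not clustered. UMI depth limits the precision of low values. Errors describe how the class difference varied between sections or libraries, and between ages the spread between sections.

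The members and gene lists were chosen with earlier results of these data known. Genes singled out per comparison were up to 12 rises and 6 falls, the largest among called genes with a mean of at least 20 CPM in the higher class and the same direction in every section (or no overlap between ages), besides list members; genes known by clone-type names alone were skipped. A few list members and singled-out genes count in the totals but are not reported here by name. The procedure was tested on simulated data with 200 changed genes. These had changes of 1 size, the same spread for every gene and no difference between sections beyond depth. The interaction and the comparisons with collagen-rich and muscle-rich spots were not simulated, so the simulation does not bear on those fits. Alternatives were DESeq2 1.42.0, limma 3.58.1, RLE size factors, no filter, no block, other spot choices and leaving out single libraries. Figures used Python 3.11.15 and matplotlib 3.10.9.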

Additional observations from a re-analysis of the deposited data

Results flagged for a closer look

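The age difference of the urothelium-rich spots was tested against that of the other spots with an interaction term, and 1413 of 14575 genes differed (edgeR quasi-likelihood test, Benjamini-Hochberg adjustment). Results with such a difference between the groups are given here as values, in the section order first 22-month, second 22-month, first 14-month and second 14-month.

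Of epithelial genes, Grhl2 had an interaction of -1.32 on the log2 scale, Shh of -1.23, Marveld2 (tricellulin, a tight junction protein) of -1.23, Epcam of -1.23 and Gsdmc3 of -1.71, so their log2 ratio of urothelium-rich over other spots was lower at 22 months. Shh stood at 182, 158, 195 and 221 CPM in the urothelium-rich spots and 106, 80.6, 47.8 and 48.4 CPM in the other spots. Marveld2 stood at 27.5, 28.4, 32.6 and 31.2 CPM in the urothelium-rich spots and 12.9, 11.1, 5.98 and 5.75 CPM in the other spots. For both genes the other spots of the 22-month sections held more than those of the 14-month sections. Gsdmc3 stood at 36.9, 13.6, 41.5 and 32.1 CPM in the urothelium-rich spots and 26.2, 7.76, 7.65 and 7.22 CPM in the other spots. Atf3 had an interaction of -2.34, and its level was high in a single section: it stood at 1.88, 0.795, 288 and 4.72 CPM in the urothelium-rich spots and 3.98, 2.61, 126 and 3.61 CPM in the other spots.

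The ratio was higher at 22 months for Cited4 (1.59), Actc1, cardiac actin (1.49), the eosinophil chemokine Ccl11 (1.47), Rasl11a (1.39), the lipase Lpl (1.38), its inhibitor Angptl4 (1.35), Amotl2 (1.31), mt-Nd4l (1.30), Kcng1 (1.27), Smoc2 (1.26), Igfbp5 (1.26) and Ltc4s (1.25). Cited4 stood at 8.86, 8.07, 5.60 and 4.21 CPM in the urothelium-rich spots and 23.5, 20.3, 38.7 and 37.5 CPM in the other spots, and Lpl at 5.40, 6.70, 8.06 and 4.21 CPM in the urothelium-rich spots and 13.7, 18.9, 44.1 and 39.5 CPM in the other spots. For Cited4, Lpl and mt-Nd4l the urothelium-rich spots lay below the other spots in every section, and the gap was wider at 14 months. mt-Nd4l stood at 39.9, 41.1, 36.2 and 23.0 CPM in the urothelium-rich spots and 63.2, 62.5, 135 and 90.4 CPM in the other spots. Of the 18 genes, 14 were not called without the section block and none was called among spots of 10000 to 30000 UMIs.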

How the results depend on the processing

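Counts of called genes are given as edgeR calls at an adjusted p under 0.05, over genes outside the rule. Asking for a change of at least 2-fold as well left 3764 genes against other spots, 2802 against collagen-rich and 4736 against muscle-rich spots, 358 between the ends, 52 between ages, 193 in the interaction and 4691 in the cells. Spots of 10000 to 30000 UMIs, chosen as an alternative after seeing the data, gave 4810, 2796 and 5750 genes in the comparisons with other, collagen-rich and muscle-rich spots, 0 between the ends, 1 between ages and 0 in the interaction; this leaves fewer spots and genes, and the cause was not tested further. Between the ends, DESeq2 called 1238 genes and limma with equal weight for every spot, on log2(CPM + 1), 952. Between ages, DESeq2 called 296 genes, no filter on low counts 936, and spots chosen by Krt5 and Krt15 alone 60. In the interaction, DESeq2 called 314, limma 166, the top 10% of spots 251 (439 members in all), spots chosen by the uroplakins alone 157 and spots chosen by Krt5 and Krt15 alone 2864; the cause was not tested.

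The section is the replicate block of the spot comparisons, since both classes come from 1 library. Without the replicate block 8571 genes were called against other spots, 6820 against collagen-rich and 9059 against muscle-rich spots, 1246 between the ends and 24 in the interaction. The comparison between ages has no pairs, since the sections of different ages carry separate numbers.

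Leaving out 1 section at a time gave 8338 to 8994 genes against other spots, 6660 to 7208 against collagen-rich and 8728 to 9094 against muscle-rich spots, and 2011 to 3156 between the ends. It gave 19 to 204 between ages, where the age left with 1 section is assumed to vary like the other, and 80 to 2065 in the interaction. The lowest of these were without the second 22-month section (19), the second 14-month section (2011) and the first 22-month section (80), and the highest without the first 14-month section (3156, 204 and 2065). Leaving out 1 cell library gave 7108 to 7978 genes. No gene singled out reversed its direction in any alternative run. Apart from Clu and Meg3, these genes were chosen for the same direction in every section or library, or no overlap between ages. Leaving out a section or library therefore had little room to reverse them. Among spots of 10000 to 30000 UMIs, 0 of 16 such genes stayed called between the ends, 0 of 18 between ages and 0 of 18 in the interaction.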

Other observations

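Plasma cell genes differed between the sections in the urothelium-rich spots as well as outside them. The 4 genes summed to 259.9, 468, 3.21 and 14.6 CPM in the urothelium-rich spots, 285, 1540, 9.50 and 208 CPM in the collagen-rich spots and 85.2, 829.5, 0.346 and 22.9 CPM in the muscle-rich spots, and no gene of this list was called between ages in the urothelium-rich spots. The suburothelial fibroblast list summed to 1241, 856, 1047 and 1205 CPM at the keratin end and 702, 501, 591 and 469.9 CPM at the uroplakin end, and the muscle list to 5573, 2256, 2336 and 1723 CPM and 2009, 2182, 4441 and 1158 CPM; the muscle values overlap between the ends, and none of the 6 muscle genes was called.

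In the first 14-month section, where the immediate-early list was high in all classes of spots, the members held several early response genes at high levels: Fosb was at 1.86, 1.95, 204 and 6.75 CPM, Nr4a1 at 8.94, 6.44, 456 and 20.1 CPM and Egr1 at 7.45, 4.02, 289.6 and 97.9 CPM. Btg2, by contrast, was high in both 14-month sections, at 91.8, 79.7, 448 and 252 CPM, and did not pass the test between ages (adjusted p = 0.14, edgeR). Among dissociated epithelial cells, 15 of 23 immediate-early genes were lower than in the other cells and 2 were higher, where 30.9% of all genes were lower and 34.2% higher.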
